A study of Mus musculus with 40 samples.

Results

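The CYP4A fatty acid hydroxylases were followed in mouse kidney through 6 genes, Cyp4a10, Cyp4a12a, Cyp4a12b, Cyp4a14, Cyp4a31 and Cyp4a32. They were chosen by name, among 55359 gene identifiers in the count files, and all 6 were among the 17345 genes that passed the filter on low counts. Bulk RNA sequencing had been done on the right kidneys of 40 male mice labelled C57BL/6 (C57BL/6NCrl in the series text), in 8 groups of 5. Each group received sesame oil alone (vehicle) or 2,3,7,8-tetrachlorodibenzo-p-dioxin (TCDD) in sesame oil at 0.03, 0.1, 0.3, 1, 3, 10 or 30 µg/kg. Gavages were given every 4 days over 28 days, and the mice were 30 days old at the start and 58 days old at the end. The controls shared the oil, the gavage and the schedule with the treated mice, no mouse carried a labelled genetic change, and the tissue was whole kidney, which mixes all segments of the nephron. In such bulk RNA, fewer cells of a type and less RNA per cell cannot be told apart.

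CYP4A enzymes are membrane-bound cytochromes P450 that add a hydroxyl group to the terminal carbon of fatty acids, which opens the route to dicarboxylic acids. In the kidney they also turn arachidonic acid into 20-HETE, a lipid that acts on vessel tone and on salt transport in the tubule. Cyp4a10 and Cyp4a14 are classic targets of the fatty acid receptor PPARα, while Cyp4a12a is the male-typical, androgen-dependent 20-HETE synthase of the mouse kidney. TCDD is a ligand of the aryl hydrocarbon receptor (AhR), whose best known target is Cyp1a1.

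The 6 genes lie close together on chromosome 4 in the GENCODE M21 annotation, in the order Cyp4a12a, Cyp4a12b, Cyp4a14, Cyp4a10, Cyp4a31, Cyp4a32, with Cyp4a14 alone on the minus strand. The stretch of coding sequence around the cysteine that holds the heme is shown because it sets out the relatedness of the members. Sequences are from GENCODE M21 transcripts, 5′ to 3′, 60 bases each, with bases that differ from Cyp4a10 in capitals.
Cyp4a10: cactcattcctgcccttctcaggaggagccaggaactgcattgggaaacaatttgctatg
Cyp4a31: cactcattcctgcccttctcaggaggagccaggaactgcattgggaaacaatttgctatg
Cyp4a32: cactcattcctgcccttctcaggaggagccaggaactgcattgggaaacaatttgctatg
Cyp4a12a: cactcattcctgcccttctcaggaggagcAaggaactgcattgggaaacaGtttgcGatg
Cyp4a12b: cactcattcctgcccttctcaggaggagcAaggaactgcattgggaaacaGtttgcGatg
Cyp4a14: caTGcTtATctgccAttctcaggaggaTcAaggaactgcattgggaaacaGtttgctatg
Cyp4a10, Cyp4a31 and Cyp4a32 were identical here, Cyp4a12a and Cyp4a12b shared 3 differences from them, and Cyp4a14 had 9. Over the whole coding sequence, Cyp4a12a and Cyp4a12b were 98.5% identical, Cyp4a10 and Cyp4a32 97.2%, Cyp4a10 and Cyp4a31 96.6%, and Cyp4a14 75.1 to 76.1% identical to the other members.

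Such likeness bears on the counts, since a read that maps equally well to 2 genes is not counted for either in the layout of the deposited files. The 60 coding bases in which close members differ most are shown next, with the differing positions in capitals. They are examples of the positions, spread over the coding sequence, by which reads of close members can be told apart.
Cyp4a12a: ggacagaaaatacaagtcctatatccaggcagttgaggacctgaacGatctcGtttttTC
Cyp4a12b: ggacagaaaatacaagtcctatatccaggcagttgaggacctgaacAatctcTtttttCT
Cyp4a10: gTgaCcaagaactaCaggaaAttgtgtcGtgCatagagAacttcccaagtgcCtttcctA
Cyp4a31: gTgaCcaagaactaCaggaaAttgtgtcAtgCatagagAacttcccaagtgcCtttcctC
Cyp4a32: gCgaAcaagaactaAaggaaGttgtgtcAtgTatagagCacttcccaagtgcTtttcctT
The pair differed at 23 of 1524 coding bases, 4 of them in this window, and the trio varied at 77 of 1527, 9 of them in its window. At most of those 9, Cyp4a32 alone differed. Cyp4a10 and Cyp4a31 differed at only 2 bases of this window, and at 52 over the whole coding sequence. Of all stretches of 150 bases, the read length, 25.6% of Cyp4a12a and 25.9% of Cyp4a12b were found unchanged in the other. That share was 7.97% for Cyp4a32, 4.34% for Cyp4a10, 4.19% for Cyp4a31 and 0% for Cyp4a14. The levels of Cyp4a12a, Cyp4a12b and Cyp4a32 are therefore the least certain of the 6, and Cyp4a14 is the member whose reads are least open to confusion.

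Gene counts summed to between 15278423 and 25575317 per library, and 6.98 to 9.70% of reads mapped to several places. Libraries are named by dose and by a replicate number given in order of deposition, which pairs nothing across groups. Within the vehicle group, replicates 1 and 2 stood apart, with summed CPM (gene counts scaled to the same library size) of 6 markers of the S3 segment of the proximal tubule of 1521 and 1696 against 2940 to 3440 in the other 3. In the 30 µg/kg group these sums were 2543, 1442, 441, 815 and 1103 CPM in replicates 1 to 5, so 4 of the 5 libraries lay below every vehicle library. Cyp1a1 was high in every library of 30 µg/kg, at 2884, 2088, 2074, 2996 and 2645 CPM in replicates 1 to 5, against 1.15 to 4.00 CPM in the vehicle libraries.

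At 30 µg/kg, 3 of the 6 members rose and 2 fell against vehicle. Cyp4a14 rose 48.4-fold, Cyp4a10 3.73-fold and Cyp4a31 1.92-fold, while Cyp4a12a fell to 0.206 and Cyp4a32 to 0.506 of its vehicle level. Of all 17345 genes tested, 8.39% were called higher and 7.55% lower in this comparison (15.9% in either direction), with an adjusted p under 0.05 in edgeR's quasi-likelihood test as the call. No member was called at any of the other 6 doses. At 0.03 to 3 µg/kg no member had even an unadjusted p under 0.05, and at 10 µg/kg 4 members did. DESeq2 gave the same counts at each of these doses, 0 called in all 6 and 4 unadjusted at 10 µg/kg. The share of all genes under that unadjusted p is not given here, so the 4 are no result about the members. Over all genes the share called was 0% at 0.03 and 0.1 µg/kg, 0.00577% at 0.3 µg/kg, 0.513% at 1 µg/kg, 1.09% at 3 µg/kg and 4.82% at 10 µg/kg. Against 10 µg/kg, the 30 µg/kg group had 2 members called, Cyp4a14 and Cyp4a10, both higher, among 2.7% of all genes.

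**Figure D1:**
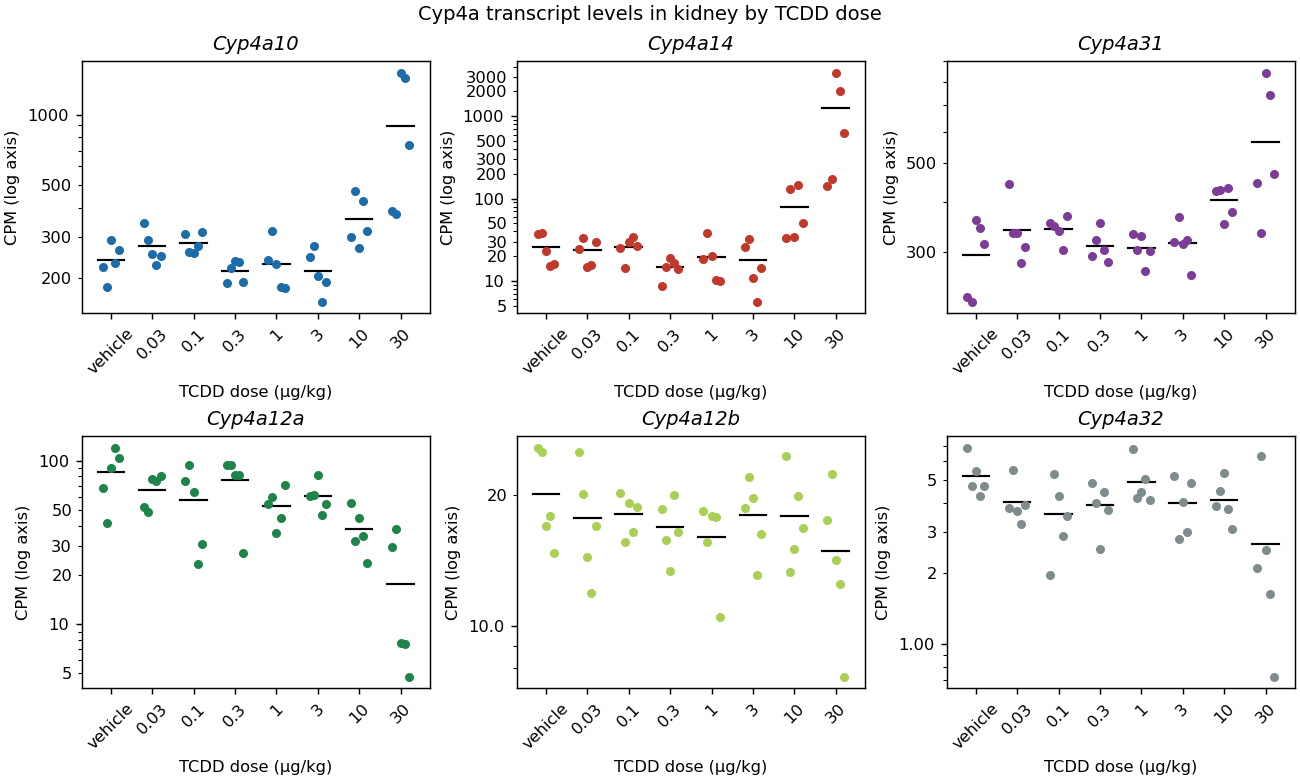
Level of each Cyp4a gene in every library, as CPM on a log axis, against TCDD dose; points are libraries (5 per group, in replicate order from left to right) and bars are arithmetic group means. At 30 µg/kg Cyp4a14 ran from 141 to 3393 CPM, above every vehicle library, and Cyp4a12a from 4.77 to 38.2 CPM, below every vehicle library.

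Cyp4a14, a fatty acid ω-hydroxylase with low expression in the male kidney, moved furthest. Its level was 37.2, 38.7, 22.9, 15.3 and 16.3 CPM in vehicle replicates 1 to 5. At 10 µg/kg it was 33.5, 132, 34.7, 146 and 50.1 CPM. At 30 µg/kg it was 141, 171, 3393, 2004 and 623 CPM. All 5 libraries of 30 µg/kg were above all vehicle libraries, but replicates 3 and 4 held more than 10 times the level of replicates 1 and 2. The difference from vehicle was 5.60 ± 0.71 log2 units (SE from the fit of all 40 libraries, n = 5 against 5, edgeR adjusted p = 1.06e-06). With 10 µg/kg, 3 of 5 libraries were above every vehicle library, and the log2 fold change of 1.60 ± 0.62 was not called (edgeR adjusted p = 0.155). The step from 10 to 30 µg/kg was 3.99 ± 0.66 log2 units (edgeR adjusted p = 0.000855). Without 30 µg/kg replicate 3, the highest library, the change was 4.80 against vehicle and 3.20 against 10 µg/kg, both still called (edgeR adjusted p = 3.11e-06 and 0.00705). At 0.03 to 3 µg/kg the group means lay between 14.7 and 25.9 CPM, against 26.1 ± 11.2 (SD, n = 5) with vehicle.

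Cyp4a10, the other PPARα-responsive hydroxylase, followed the same libraries over a smaller range. It stood at 222, 183, 289, 232 and 264 CPM with vehicle and at 299, 472, 268, 425 and 317 CPM at 10 µg/kg. In the libraries of 30 µg/kg it was 388, 375, 1515, 1431 and 739 CPM. Again all 5 lay above the vehicle libraries, and the 3 that were high in Cyp4a14 were the 3 that were high here. Against vehicle it gained 1.90 ± 0.27 log2 units at the top dose (edgeR adjusted p = 7.09e-06), and against 10 µg/kg 1.32 ± 0.27 (edgeR adjusted p = 0.00471). Of the 10 µg/kg libraries, 4 of 5 were above all vehicle libraries, and the log2 fold change was 0.58 ± 0.27, which was not called (edgeR adjusted p = 0.265).

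Cyp4a31, a close relative of Cyp4a10, was one of the most abundant members with vehicle, at 231, 225, 360, 344 and 314 CPM. It was 427, 428, 352, 434 and 377 CPM at 10 µg/kg and 445, 334, 844, 741 and 469 CPM at 30 µg/kg. Replicate 2 of 30 µg/kg lay within the vehicle range and the other 4 above it. Its rise at the top dose was 0.94 ± 0.17 log2 units (edgeR adjusted p = 0.000109). With 10 µg/kg the difference was 0.45 ± 0.17, not called (edgeR adjusted p = 0.124). Between 30 and 10 µg/kg it was 0.49 ± 0.17, not called (edgeR adjusted p = 0.113).

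Cyp4a12a, the male-typical 20-HETE synthase, went the other way. Its vehicle libraries held 68.2, 41.7, 90.2, 120 and 104 CPM. At 10 µg/kg the values were 55.1, 32.3, 44.3, 34.5 and 23.6 CPM, and at 30 µg/kg 29.6, 38.2, 7.66, 7.52 and 4.77 CPM. All 5 libraries of 30 µg/kg were below the vehicle libraries, the lowest being replicates 3, 4 and 5, which were the high ones for Cyp4a14. The fitted log2 fold change was -2.28 ± 0.44 (edgeR adjusted p = 0.000398). At 10 µg/kg it was -1.16 ± 0.42 with 3 of 5 libraries below the vehicle range, which was not called (edgeR adjusted p = 0.123). The means at 0.03, 0.1, 0.3, 1 and 3 µg/kg were 66.5, 57.7, 75.8, 53.0 and 60.8 CPM, against 84.9 ± 30.8 (SD, n = 5) with vehicle. None of those 5 doses was called, and with 5 libraries per group this cannot show that the lower means were spread alone.

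Cyp4a12b, nearly identical to Cyp4a12a in sequence, overlapped its vehicle range. It had 25.7, 25.1, 17.0, 17.9 and 14.7 CPM with vehicle and 17.5, 22.3, 14.2, 12.5 and 7.64 CPM at 30 µg/kg. There were 3 libraries of 30 µg/kg below every vehicle library. Its log2 fold change of -0.44 ± 0.22 was not called (edgeR adjusted p = 0.172). Without replicate 2 of 30 µg/kg it was -0.64 and was called (edgeR adjusted p = 0.0353).

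Cyp4a32, the third gene of the Cyp4a10 trio, was the scarcest, at 6.86, 4.71, 5.44, 4.27 and 4.70 CPM with vehicle. At 30 µg/kg it was 2.10, 6.33, 2.51, 1.63 and 0.726 CPM, of which the last rests on 19 counts. Replicate 2 lay within the vehicle range and the other 4 below it. Its fitted change was -0.98 ± 0.30 log2 units (edgeR adjusted p = 0.0195), and -1.61 to -0.72 with each library left out in turn. The -1.61 was without 30 µg/kg replicate 2 (edgeR adjusted p = 3.37e-05). This call was lost (edgeR adjusted p = 0.0765) with sense-strand counts in place of unstranded ones. It was also lost without vehicle replicate 1 (0.0595), without 30 µg/kg replicate 4 (0.0767) or replicate 5 (0.0842), and without vehicle replicates 1 and 2 together (0.091), each an edgeR adjusted p.

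**Figure D2:**
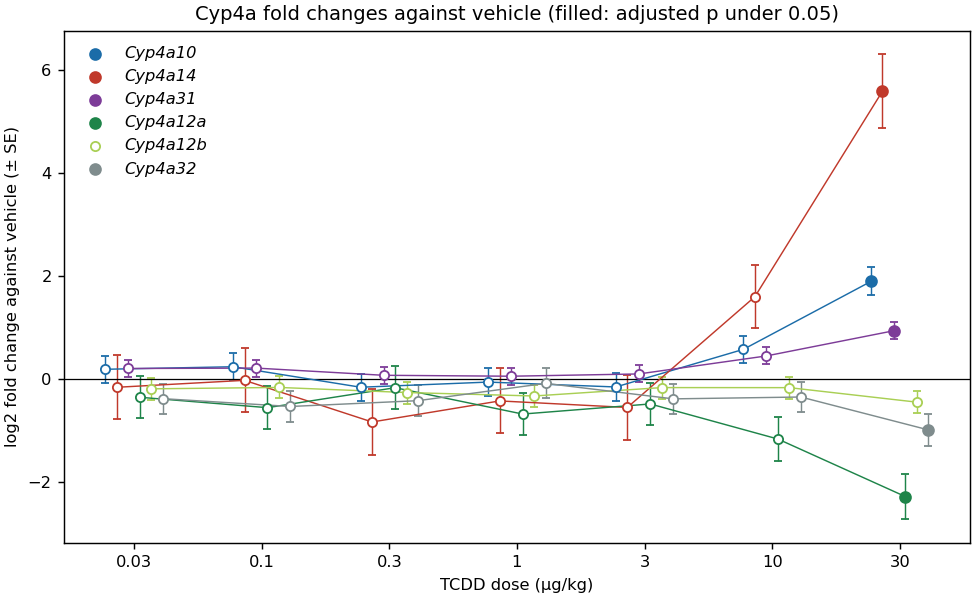
Fitted log2 fold change of each Cyp4a gene against vehicle by TCDD dose, with error bars of 1 SE (5 libraries per group); filled points passed an adjusted p of 0.05 in edgeR and open ones did not. Filled points appear at 30 µg/kg alone, 3 above 0 and 2 below, and the open point of Cyp4a12b lies at -0.44.

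The values above come from 1 fit of all 8 groups, which share an estimate of the spread. In a fit of the 10 libraries of the 2 groups alone, Cyp4a14 (5.60, edgeR adjusted p = 0.023) and Cyp4a10 (1.90, 0.0394) were still called. Cyp4a31 (0.94, edgeR adjusted p = 0.0594), Cyp4a12a (-2.28, 0.0771) and Cyp4a32 (-0.98, 0.203) had the same log2 fold changes there but were not called. Without vehicle replicates 1 and 2, the log2 change at the top dose was 6.11 for Cyp4a14, 1.76 for Cyp4a10, 0.74 for Cyp4a31 and -2.59 for Cyp4a12a, all 4 called by edgeR. Titles number the libraries 1 to 27 and 28 to 53 with each group in both runs of numbers, and the labels call this no batch. The difference of mean log2 CPM at 30 µg/kg was 3.76 for Cyp4a14 up to number 27 and 6.13 from 28 on, and -1.62 and -4.20 for Cyp4a12a. All 6 members had the same sign in both runs.

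Over the rank of dose from vehicle to 30 µg/kg, 4 members had a trend, against 19.8% of all genes. Cyp4a14, Cyp4a10 and Cyp4a31 rose by 0.75 ± 0.10, 0.20 ± 0.04 and 0.09 ± 0.02 log2 units per step, and Cyp4a12a fell by 0.22 ± 0.05 (edgeR adjusted p = 1.06e-06, 0.000418, 0.0013 and 0.0025). Without the 30 µg/kg group, edgeR called no member, with 3 at an unadjusted p under 0.05, while 1399 genes over the whole table were called. Those 1399 passed the adjusted threshold, and the share of all genes under the unadjusted one is not given here.

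The relative abundance of the members was compared within each library, which needs no scaling between libraries. Of 5 ratios tested, all 5 differed between 30 µg/kg and vehicle by a two-sided exact permutation test (n = 5 against 5, smallest possible p = 0.00794). All but that of Cyp4a12b to Cyp4a12a share Cyp4a10, so they are not independent. Cyp4a10 alone ran from 375 to 1515 CPM at 30 µg/kg and from 183 to 289 CPM with vehicle. A gene with no change would therefore also fall against Cyp4a10, and a fallen ratio does not show by itself that the other member moved. The log2 ratio of Cyp4a14 to Cyp4a10 went from -3.28 ± 0.82 (SD) with vehicle to -0.24 ± 1.09 at 30 µg/kg (exact p = 0.00794, adjusted over the 5 ratios 0.0132). So Cyp4a14 gained on Cyp4a10 by 3.04 log2 units, and the groups did not overlap. The log2 ratio of Cyp4a31 to Cyp4a10 fell by 0.78, from 0.30 ± 0.18 to -0.48 ± 0.49 (exact p = 0.0159, adjusted 0.0198). Cyp4a32 and Cyp4a10, 97.2% identical in coding sequence, also parted, as their log2 ratio fell by 2.95, from -5.51 ± 0.35 to -8.46 ± 1.73 (exact p = 0.00794, adjusted 0.0132). For Cyp4a12a to Cyp4a10 the log2 ratio fell by 4.33, from -1.56 ± 0.44 to -5.89 ± 2.19 (exact p = 0.00794, adjusted 0.0132). Even Cyp4a12a and Cyp4a12b did not keep their ratio, as that of Cyp4a12b to Cyp4a12a went from -2.02 ± 0.91 to 0.15 ± 0.84 (exact p = 0.0238, adjusted 0.0238).

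Per kilobase of exon, the order of the members with vehicle was Cyp4a31 (117 ± 25.1 CPM per kb, SD, n = 5), Cyp4a10 (113 ± 19.3), Cyp4a12a (35.0 ± 12.7), Cyp4a14 (10.0 ± 4.31), Cyp4a12b (8.39 ± 2.08) and Cyp4a32 (3.38 ± 0.66). Cyp4a31 and Cyp4a10 differed by less than their spread, and so did Cyp4a14 and Cyp4a12b. At 30 µg/kg the order was Cyp4a14 (487 ± 542), Cyp4a10 (422 ± 262), Cyp4a31 (226 ± 85.8), Cyp4a12a (7.25 ± 6.31), Cyp4a12b (6.19 ± 2.30) and Cyp4a32 (1.73 ± 1.41). There too Cyp4a14 and Cyp4a10, and Cyp4a12a and Cyp4a12b, differed by less than their spread. The whole family summed to 287 ± 47.2 CPM per kb with vehicle, 386 ± 71.3 at 10 µg/kg and 1150 ± 873 at 30 µg/kg.

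Cyp4a14 made up 3.76 ± 2.23% (SD, n = 5) of that sum with vehicle and 12.4, 16.2, 55.0, 43.9 and 30.6% in replicates 1 to 5 of 30 µg/kg. The share of Cyp4a12a was 11.9 ± 3.11% with vehicle and 2.80, 3.88, 0.133, 0.177 and 0.252% in the same libraries. Cyp4a10 had a like share, 39.4 ± 2.45% with vehicle and 39.9 ± 5.87% at 30 µg/kg, and Cyp4a31 had 40.7 ± 2.88% and 25.7 ± 11.0%. At 30 µg/kg the family was thus made up mainly of Cyp4a10, Cyp4a14 and Cyp4a31 in every library, and the male-typical Cyp4a12a held at most 3.88%.

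**Figure D3:**
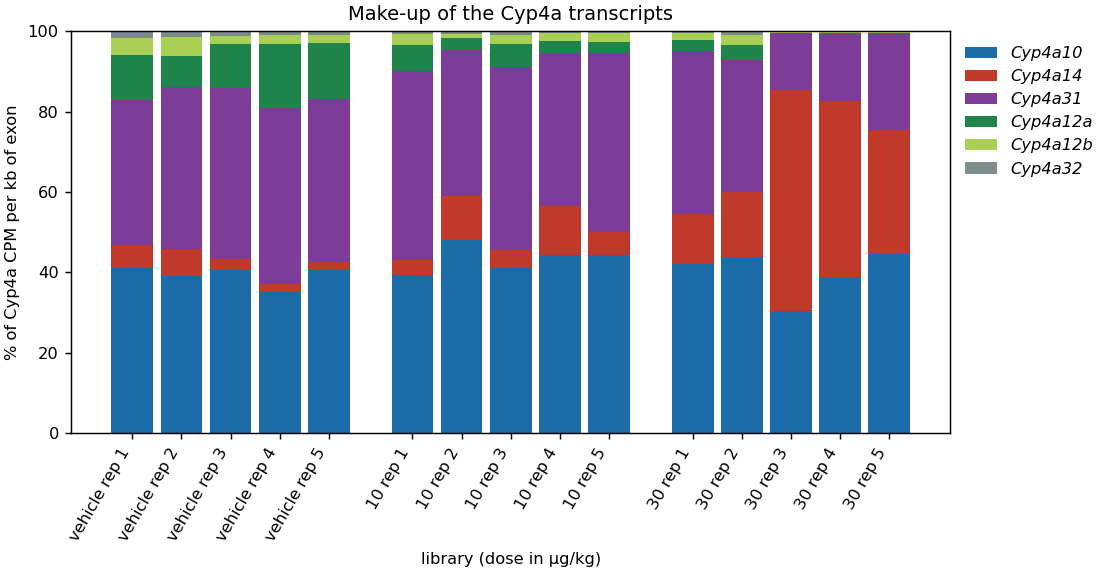
Share of each Cyp4a gene in the summed Cyp4a level (CPM per kb of exon, in percent) in each library of vehicle, 10 and 30 µg/kg; 1 bar is 1 library. Cyp4a14 takes 12.4 to 55.0% at 30 µg/kg against 1.88 to 6.70% with vehicle, and Cyp4a12a at most 3.88% against 7.76 to 15.9%.

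The 5 libraries of 30 µg/kg differed more in Cyp4a14 than in nearly any other gene. The SD of its log2 CPM among them was 2.05, the 14th largest of the 17345 genes and above that of 99.9% of them, against 0.63 with vehicle. For Cyp4a12a the SD was 1.32 (above 97.3% of genes), for Cyp4a32 1.07 (93.1%), for Cyp4a10 0.97 (90.9%), for Cyp4a12b 0.58 (75.1%) and for Cyp4a31 0.55 (73.6%). Replicates 1 and 2 lay 2.43 and 2.71 log2 units above the vehicle mean of Cyp4a14, and replicates 3, 4 and 5 lay 7.02, 6.26 and 4.58 above it. For Cyp4a12a the same libraries lay at -1.52 and -1.15, and at -3.47, -3.50 and -4.15. The AhR target Cyp1a1 did not share this split, since replicate 3, the highest in Cyp4a14, was the lowest in Cyp1a1.

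Other genes did share it. Pdk4, the kinase that turns pyruvate away from oxidation, was 32.9, 79.2, 721, 495 and 111 CPM in replicates 1 to 5 of 30 µg/kg and 17.1 to 35.7 CPM with vehicle. So Pdk4 lay within its vehicle range in replicate 1 and above it in the other 4, furthest in replicates 3 and 4. In the opposite direction, Kap, an androgen-dependent transcript of the proximal tubule, was 15208, 8211, 1038, 3631 and 4351 CPM, against 9692 to 22482 CPM. Slco1a1, a male-typical organic anion transporter, was 66.9, 50.0, 0.678, 1.01 and 5.39 CPM, against 90.8 to 294 CPM. Replicates 3, 4 and 5 also had the lowest S3 marker sums, as given above, and the part of the S3 sums in these results was not tested.

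**Figure D4:**
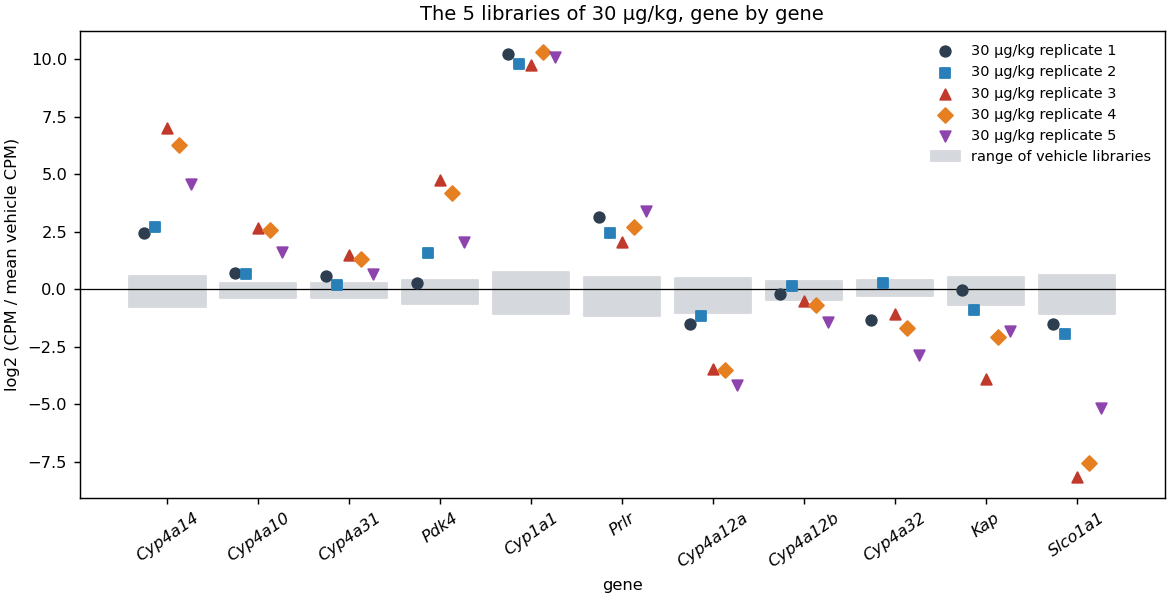
The 5 libraries of 30 µg/kg for 11 genes, as log2 of CPM over the mean CPM of the 5 vehicle libraries; grey bars span the vehicle libraries and each symbol is 1 library. Replicates 3, 4 and 5 are the highest for Cyp4a14, Cyp4a10 and Pdk4 and the lowest for Cyp4a12a, Kap and Slco1a1, while Cyp1a1 and Prlr show no such split.

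The genes most like Cyp4a14 over the 40 libraries, by Pearson's r of log2 CPM, included Cbr1 (0.949), Rdh16f2 (0.942), Acsl1 (0.933) and Mgst1 (0.933), apart from Cyp4a10 itself (0.952). With the group means taken out, they included Cbr1 (0.815), Cyp2d22 (0.798), Mgst1 (0.797) and Hfe (0.777), with Cyp4a10 at 0.862. Over the 35 libraries without 30 µg/kg, r with Cyp4a14 was 0.874 for Rdh16f2 and 0.821 for Cyp4a10. For Cyp4a12a the nearest were Fuca2 (0.873), Timd2 (0.873), Inmt (0.872), Cyp4b1 (0.869) and Ugt2b38 (0.867). Within groups they were Fuca2 (0.732), Tmem176a (0.729), 4930453N24Rik (0.712), Slc17a1 (0.711) and Pzp (0.700). The r of Cyp4a12a with Cyp4a14 was -0.814 over all libraries and -0.456 over the 35. These values are a description, since the genes of a library share its depth and tissue piece, and the libraries of a group share their dose.

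Among the 9 other Cyp4 genes that passed the filter, 2 rose and 2 fell at 30 µg/kg, and the median log2 fold change of the 9 was 0.08, against 0.01 over all genes. Cyp4f18 rose by 2.35 ± 0.57 (edgeR adjusted p = 0.00242), from 0.359 to 1.85 CPM, and Cyp4f15 by 2.06 ± 0.37 (edgeR adjusted p = 6.26e-05), from 1.35 to 5.64 CPM. Both hydroxylate lipid mediators or fatty acids and were scarce here. Those that fell were Cyp4b1 (-1.06) and Cyp4f14 (-0.99). The remaining Cyp4a genes and pseudogenes of the cluster were almost silent, with counts summed over 40 libraries of 17 for Cyp4a30b, 5 for Cyp4a29, 2 for Cyp4a30-ps, 1 for Cyp4a29-ps1 and 0 for Cyp4a28-ps.

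Of 33 genes known as PPARα targets, 19 rose and 1 fell at 30 µg/kg, with a median log2 fold change of 0.48. Creb3l3, a transcription factor of lipid metabolism, had the largest change, at 4.51 ± 0.97 (edgeR adjusted p = 0.000829). Creb3l3 was at most 0.340 CPM with vehicle and 0.398, 0.509, 12.9, 6.29 and 0.764 CPM in replicates 1 to 5 of 30 µg/kg, so its fold rested mainly on replicates 3 and 4. Pdk4 rose by 3.43 ± 0.55 (edgeR adjusted p = 3.44e-05). At 10 µg/kg 1 of the 33 was called, Vnn1, a pantetheinase, at 0.60 (edgeR adjusted p = 0.0488), with a median of 0.09.

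Of 12 PPAR receptors and partners, 1 rose and 1 fell. Ppara itself was 30.8, 67.3, 95.9, 65.6 and 37.5 CPM at 30 µg/kg, against 31.9 to 47.7 CPM with vehicle. Its log2 fold change of 0.48 ± 0.21 was not called (edgeR adjusted p = 0.112). Pparg rose by 0.91 ± 0.29 from 4.69 CPM (edgeR adjusted p = 0.0248), and Ppard fell by 1.00 ± 0.22 from 126 CPM (edgeR adjusted p = 0.00136).

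In the electron supply and the steps after ω-hydroxylation, 1 of 17 genes rose and 6 fell, with a median log2 fold change of -0.17. The riser was Acsl1, which activates fatty acids with coenzyme A (1.36 ± 0.21, edgeR adjusted p = 2.3e-05). Acsl1 is also 1 of the 19 PPARα targets that rose, and the 1 PPARα target that fell is among these 6. Adh1, an alcohol dehydrogenase, fell the most, by 0.91 ± 0.16 (edgeR adjusted p = 6.55e-05). Por, which supplies electrons to all microsomal P450 enzymes, had -0.18 and was not called (edgeR adjusted p = 0.149). Of 15 other enzymes of arachidonate, 3 rose and 4 fell (median 0.32). Alox15, a lipoxygenase, rose by 2.44 ± 0.79 (edgeR adjusted p = 0.0272) to 1.73 CPM, and Cyp2j13, an epoxygenase, fell by 1.92 ± 0.45 (edgeR adjusted p = 0.00236). Cyp2j13 is also counted among the male-typical genes below.

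Genes known to be higher in the male kidney fell with Cyp4a12a. Of 10, 9 fell and none rose at 30 µg/kg, with a median log2 fold change of -1.15. Slco1a1 fell by 2.95 ± 0.60 (edgeR adjusted p = 0.000617), Acsm3, a medium-chain acyl-CoA synthetase, by 2.38 ± 0.47 (edgeR adjusted p = 0.000413) and Kap by 1.23 ± 0.35 (edgeR adjusted p = 0.0116). Over all genes, 8.39% were called higher and 7.55% lower. The female-typical list held only 2 genes, chosen with earlier results known, so it does not stand for such genes in general. Both rose, the prolactin receptor Prlr by 2.84 ± 0.34 (edgeR adjusted p = 4.04e-07) and the amino acid transporter Slc7a12 by 2.59 ± 0.45 (edgeR adjusted p = 8.65e-05). Unlike the Cyp4a genes, those 2 were also called at 10 µg/kg, at 2.20 and 2.10 (edgeR adjusted p = 3.09e-05 and 0.00208), where no male-typical gene was. Of 7 hormone receptors, Hnf4a alone was called, at -0.24 ± 0.08 (edgeR adjusted p = 0.0243).

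**Figure D5:**
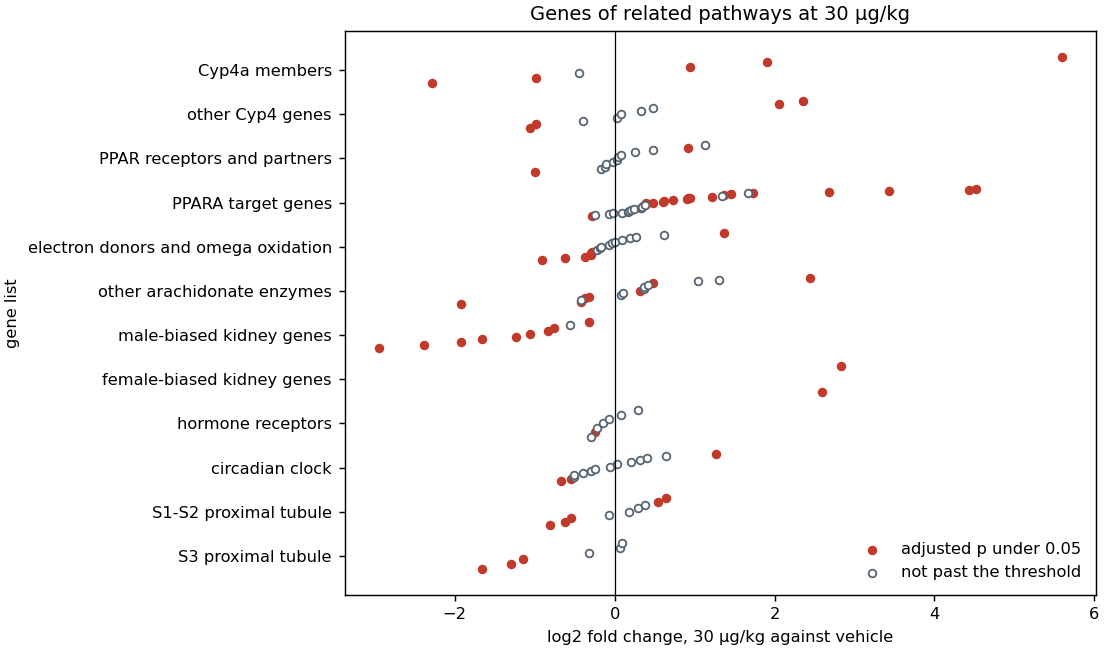
Log2 fold change at 30 µg/kg against vehicle of each tested gene in 12 gene lists; 1 point is 1 gene, filled in red where the edgeR adjusted p was under 0.05. Of the PPARα targets 19 of 33 are called higher and 1 lower, of the male-typical genes 9 of 10 lower, and the Cyp4a genes span the range from -2.28 to 5.60.

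Of 7 AhR target genes, 6 rose at 30 µg/kg, led by Cyp1a1 at 10.07 ± 0.31 (edgeR adjusted p = 2.58e-22) and Ahrr at 3.88 ± 0.38 (edgeR adjusted p = 8.73e-10), and 5 of the 7 had risen at 10 µg/kg. Of 14 circadian clock genes 1 rose and 2 fell. Per1 had 1.26 ± 0.41 and Hlf -0.67 ± 0.13 (edgeR adjusted p = 0.0332 and 0.00024).

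Markers of other parts of the kidney and of neighbouring tissue were measured beside these results. Of 6 S3 markers 3 fell, among them Cyp7b1 (-1.66 ± 0.44, edgeR adjusted p = 0.00711) and Slc7a13 (-1.29 ± 0.42, edgeR adjusted p = 0.0305), and the other 3 were not called. Cyp7b1 also stands among the male-typical genes. The summed S1-S2 markers ran from 9724 to 16530 CPM at 30 µg/kg and from 13152 to 17638 CPM with vehicle, and 2 of these 9 markers rose and 3 fell. Of 7 liver markers 3 rose and 1 fell, the risers led by the fibrinogen chains Fgb (3.34) and Fga (1.93). The summed liver markers were 149, 120, 291, 337 and 284 CPM in replicates 1 to 5 of 30 µg/kg, against 103 to 263 CPM with vehicle, so replicates 3, 4 and 5, the high ones for Cyp4a14, were high here too. Fga was 23.2, 26.2, 147, 99.2 and 53.1 CPM and Fgb 1.14, 4.98, 43.8, 12.5 and 7.10 CPM in the same libraries, against 14.0 to 23.1 and 0.562 to 3.17 CPM with vehicle. Alb, the most abundant liver transcript, was at 3.81, 9.05, 5.83, 2.81 and 2.48 CPM against 6.26 to 8.64 CPM. Fat markers summed to 181, 368, 186, 364 and 448 CPM in replicates 1 to 5 of 30 µg/kg and 60.9 to 186 CPM with vehicle. Of these 9, Elovl3 and Ucp1 were called higher and Lep lower, and Ucp1 was at 54.3 to 120 CPM against 4.19 to 16.0 CPM. The part of fat, liver and segment markers in the Cyp4a results was not tested.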

How the data were processed

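The authors deposited, for each library, a table of whole-number read counts per gene, laid out as STAR writes it. STAR 2.7.3a, Trimmomatic 0.39, FastQC 0.11.7 and the builds GRCm39 and mm10 are named, with no roles, per the submitters' processing notes, so no gene coordinates are given. The unstranded count column was used, since the stranded columns held nearly equal shares (50.4 to 51.0% sense). Unmapped, multimapping, featureless and ambiguous reads (1.41 to 2.66%, 6.98 to 9.70%, 5.28 to 7.27% and 5.40 to 5.98%) stayed out. GENCODE M21 named 52083 of 55359 identifiers.

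All 40 libraries were fitted in edgeR 4.0.16 (R 4.3.3) with TMM scaling, filterByExpr, robust quasi-likelihood tests and Benjamini-Hochberg adjustment over 17345 genes, with a call at 0.05. CPM values use TMM-scaled library sizes. The SE of a log2 fold change or trend is its absolute value over the square root of the F statistic. It therefore draws on the spread of all 40 libraries, not on that of the compared groups alone. Likeness used log2 CPM with a prior count of 2, and ratios used counts plus 0.5 with exact permutation tests in scipy 1.17.1. The code was tested on simulated data. Replicates of a group (80 pairs) differed beyond sampling noise (chi-square per degree of freedom 6.9 to 78.8). Counts carry counting error as well as mouse-to-mouse spread, and p-values measure the spread between these libraries. Alternatives were DESeq2 1.42.0, RLE size factors, no low-count filter, sense-strand counts, a title-number term, the 2 groups alone, leaving out each library, and the trend without 30 µg/kg. A fit without vehicle replicates 1 and 2 was added after seeing the data.

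The Cyp4a genes and the gene lists were chosen with earlier results of these data known. Named by rule were the members, the 2 called genes of each list with the largest change at 30 µg/kg, Ppara, Pdk4, Cyp1a1, Kap, Slco1a1, Alb, Ucp1 and a few others, and the 5 genes most like Cyp4a14 or Cyp4a12a; some genes this rule names are not reported here. Vnn1, Por, Lep, Cyp4b1, Cyp4f14 and the silent Cyp4a relatives were named after their values were seen. Of lists with markers of other tissue, thick limb and collecting duct had 0 higher and 2 lower of 7 (Slc4a1 and Aqp3) and adrenal cortex 0 of 2 called at 30 µg/kg.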

Additional observations from a re-analysis of the deposited data

Results flagged for a closer look

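Cyp4a12a at 0.3 µg/kg stood at 27.2 CPM in replicate 5, against 94.6, 94.6, 81.4 and 81.1 CPM in replicates 1 to 4. It was flagged because the gap to the nearest library, 0.799 of the group's whole range, was larger than the 0.710 allowed for 5 samples. It was the 1 flag among 48 groups of members and doses looked at, where chance alone flags about 1 in 20 groups. Cyp4a14, at 14.0 CPM, was near the middle of its group in that library.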

How the results depend on the processing

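The direction of all 6 fold changes at 30 µg/kg was the same in every alternative run. The number of members called there was 5, and it was 4 to 6 when each library was left out in turn and 2 (both higher) in edgeR with the 2 groups alone. Between 30 and 10 µg/kg it was 2, and 2 to 5 with each library left out, the 5 being without 30 µg/kg replicate 2. In edgeR with these 2 groups alone it was 0, with 3 members at an unadjusted p under 0.05. The share of all genes under that unadjusted p is not given here. The trend called 4 members in each of 40 leave-one-out fits and 0 without the 30 µg/kg group. The cause of these losses was not tested. Except for the trend without 30 µg/kg, the number of all genes called in the alternative fits is not given here. The changed counts are therefore no result about the members alone. With vehicle replicates 1 and 2 left out, 4 members were called at 30 µg/kg. At 10 µg/kg and below, 0 members were called in every alternative run. The log2 fold change of Cyp4a14 at 30 µg/kg ranged from 4.80 to 5.89 with each library left out, and that of Cyp4a12a from -2.79 to -2.02. The 5 ratios kept their call throughout. Low counts limit Cyp4a32, and shared sequence limits Cyp4a12a and Cyp4a12b. No paired analysis was possible because the labels give no replicate numbers.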

Other observations

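Below 10 µg/kg, the members already varied together in part. Over the 30 libraries of vehicle to 3 µg/kg, Cyp4a10 and Cyp4a14 had a Pearson's r of 0.66 in log2 CPM (permutation p = 6e-05, adjusted over 15 pairs 0.00075; Spearman's rho 0.61, permutation p = 0.00038). Without the 2 libraries farthest from the median of Cyp4a10 it was 0.60, and within title numbers up to 27 and from 28 on it was 0.40 and 0.88. Cyp4a10 and Cyp4a31 had an r of 0.64 (permutation p = 0.0001, adjusted 0.00075; rho 0.67, permutation p = 7e-05), 0.65 without the 2 farthest libraries, and 0.69 and 0.56 in the 2 runs of numbers. Cyp4a12b and Cyp4a14 had an r of 0.54 (permutation p = 0.00237, adjusted 0.0119; rho 0.49, permutation p = 0.00577), 0.50 without the 2 farthest, and 0.45 and 0.51 in the 2 runs. The other 12 pairs did not pass the adjusted threshold, among them Cyp4a12a and Cyp4a12b, at -0.15 (permutation p = 0.417, adjusted 0.63). This range of doses was chosen after seeing the data. Group means were not taken out here, so r and its permutation p mix differences between dose groups with those within them.

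Vehicle replicates 1 and 2 differed from the other 3 vehicle libraries in several genes that also split the libraries of 30 µg/kg. They had the highest Cyp4a14 of the group (37.2 and 38.7 against 15.3 to 22.9 CPM). They had the lowest Cyp4a12a (68.2 and 41.7 against 90.2 to 120 CPM), the lowest Kap (10035 and 9692 against 14959 to 22482 CPM) and the lowest Slco1a1 (116 and 90.8 against 171 to 294 CPM). Cyp4a10 and Cyp4a31, however, were not higher there, with Cyp4a31 at 231 and 225 against 314 to 360 CPM. No test was made of this pattern, since the 2 libraries were set apart by their values.

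Summed adrenal cortex markers were 792 CPM in 0.03 µg/kg replicate 1, 827 CPM in 1 µg/kg replicate 4 and 43.2 CPM in 3 µg/kg replicate 2, and at most 8.81 CPM in every other library. In those 3 libraries Cyp4a14 was at 24.3, 10.2 and 32.3 CPM, Cyp4a10 at 343, 182 and 274 CPM and Cyp4a31 at 443, 268 and 366 CPM. For Cyp4a10 and Cyp4a31, the 0.03 µg/kg library was the highest of the 30 libraries of vehicle to 3 µg/kg, the next being 316 and 368 CPM. The part of adrenal tissue in these levels was not tested.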
